A study of Drosophila melanogaster with 19 samples.

Results

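Embryos carrying the ΔN transgene were compared with embryos carrying the FLWF24 transgene, 4 libraries of each out of 19 in the series, chosen by their genotype labels. Both transgenes leave the fly with Chiffon-B and without Chiffon-A. In FLWF24 a premature stop interrupts the reading frame of Chiffon-A near its start, and in ΔN the N-terminal coding sequence is deleted. The question was whether these routes to Chiffon-B alone gave the same RNA levels.

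Chiffon is made from a single transcript that yields a pair of proteins. Chiffon-A is the Dbf4-like activator of the Cdc7 kinase in the DDK complex, which acts in DNA replication, and Chiffon-B is the scaffold of the CHAT complex, in which the acetyltransferase Gcn5 modifies histone H3. Ribosomal protein genes, which recur below, encode the structural proteins of the cytoplasmic ribosome and are among the shortest and most strongly transcribed genes of the fly.

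All embryos were *Drosophila melanogaster* at stages 12 to 14 and were picked by hand for GFP. ΔN and FLWF24 embryos carried the *chiffon* null alleles ETBE3 and DsRed, with *Actin-Gal4* and a *UAS-GFP* reporter, and the respective transgene under *chiffon* regulatory sequences. The remaining 11 libraries, used for the shared estimate of the spread and as reference levels, were *chiffon* null embryos without a transgene (n = 4), embryos with the full-length transgene FL in the same null background (n = 3), and WT embryos, the parental *act-Gal4>GFP* control (n = 4). Whole embryos were extracted, so fewer cells of a type and less RNA per cell cannot be told apart. Each transgene was represented by 1 genotype, and any other difference between those stocks cannot be told apart from the transgene.

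After removal of rRNA genes, ΔN libraries held 5161281 to 15416304 gene counts and FLWF24 libraries 8816348 to 14703609. Reads in genes were 3.77% to 23.6% and 8.28% to 19.9% of all counted reads. ΔN replicate 4 (3.77%) and FLWF24 replicate 3 (8.28%) were the lowest of the 8, and counts are given below without them where it matters. Reads assigned to no gene were 4.36% to 5.36% in ΔN and 3.34% to 3.92% in FLWF24, without overlap. In ΔN replicate 4 they numbered 115.5 per 100 gene counts. Reads without a unique alignment were 59.3% to 85.3% in ΔN and 64.6% to 79.9% in FLWF24. Whether these shares bear on the differences below was not tested. The GFP reporter was at 74.96 to 101.8 CPM (counts scaled to library size by TMM) in ΔN and 61.6 to 230.6 in FLWF24, and Gal4 at 81.1 to 132.8 and 129.5 to 342.3. A stage score, the mean log2 level of muscle and cuticle genes minus that of early embryo genes, was -3.09 ± 1.53 for ΔN and -3.11 ± 0.654 for FLWF24 (SD, 4 libraries each; two-sided exact permutation p 0.971, adjusted over 2 single values 0.971). ΔN replicate 4 had the highest score of the 8 (-0.866), and without it ΔN was lower by 0.728 (exact permutation p 0.171).

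*chiffon* itself (chif, FBgn0000307, arm 2L, 16342430 to 16352628, minus strand, assembly BDGP6) was read first. It was at 548.6, 482.8, 497.0 and 250.4 CPM in ΔN replicates 1 to 4 and at 220.6, 313.3, 246.2 and 236.2 CPM in FLWF24. In ΔN 3 of 4 libraries lay above every FLWF24 library, and replicate 4 lay among them. The log2 fold change of ΔN against FLWF24 was 0.78 (SE 0.222). In edgeR's quasi-likelihood test p was 0.00192 before and 0.177 after adjustment, so *chiffon* was not called. Without ΔN replicate 4 it was 1.03 with an adjusted p of 0.0193, and DESeq2 gave 0.85 with an adjusted p of 0.0177. Reads of the transgene and of the mutant alleles were counted together. The ΔN transgene lacks the N-terminal coding sequence and counts were not scaled to transcript length, so levels per transcript were not compared. In null embryos, which have the alleles alone, the level was 22.3 to 38.0 CPM.

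Between ΔN and FLWF24, 41 of 11978 tested genes were called, 0.342%, at a Benjamini-Hochberg adjusted p under 0.05 and a log2 fold change of at least 0.5 in either direction. Of these, 39 were lower in ΔN (0.326%) and 2 were higher (0.0167%). Of the 39 lower genes, 20 encode cytoplasmic ribosomal proteins. At an unadjusted p under 0.05 there were 940 lower (7.85%) and 478 higher (3.99%) genes. The libraries of ΔN and FLWF24 did not overlap for 39 of the 41 called genes, against 597 of all tested genes (4.98%). The median log2 fold change over all tested genes was -0.06.

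The number of calls moved with single libraries and with the processing. It was 13 without FLWF24 replicate 1, 24 without replicate 2, 20 without replicate 3 and 22 without replicate 4. It was 66 without ΔN replicate 1 and 18 without ΔN replicate 3. Leaving out libraries that entered only through the shared spread gave 22 without null replicate 4 and 27 without WT replicate 4. Without the low-yield libraries, ΔN replicate 4 and FLWF24 replicate 3, it was 35, and DESeq2 called 335 genes (127 higher, 208 lower). Scaling to the ERCC spike-ins left 1 call, *qvr*. ERCC reads numbered 0.819 to 2.23 per 100 gene counts in ΔN libraries and 0.914 to 2.07 in FLWF24 libraries. Whether this spread within the groups bears on the lost calls was not tested. Removing the relation of the difference to exon length, described below, left 2 calls, *Ntf-2* and *qvr*. In the 19 fits without 1 library, 9 of the 41 genes kept their call each time, 7 of them of the ribosomal protein list.

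**Figure D1:**
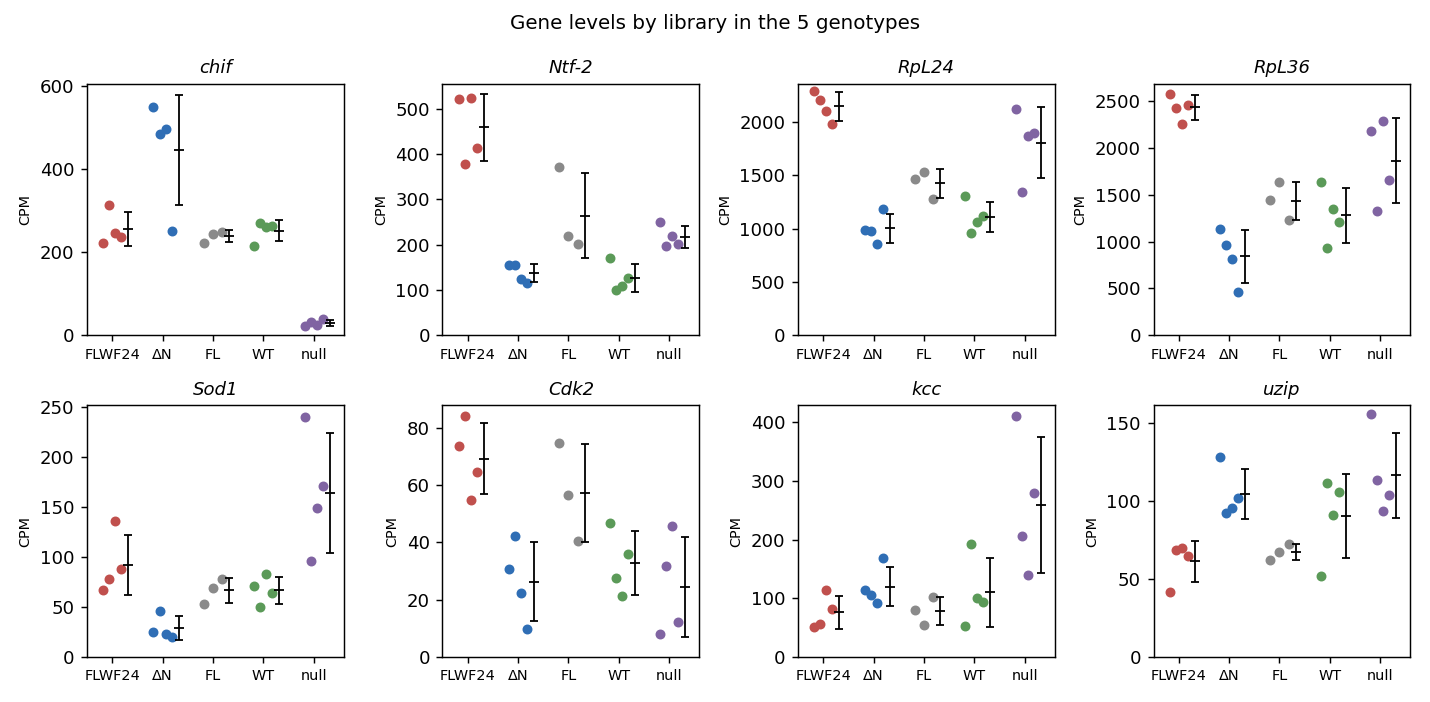
CPM of 8 genes in every library of the 5 genotypes, 1 dot per library, with the mean and SD as a bar to the right of the dots (n = 3 for FL, 4 for the others). *Ntf-2*, *RpL24*, *RpL36*, *Sod1* and *Cdk2* do not overlap between FLWF24 and ΔN; *chif* and *kcc* do, and *uzip* is higher in ΔN.

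The smallest p belonged to *Ntf-2* (FBgn0031145, X, 21035469 to 21041467, plus strand), nuclear transport factor 2, which carries Ran into the nucleus. It was at 155.2, 154.6, 124.1 and 115.4 CPM in ΔN and at 522.1, 378.5, 523.4 and 413.3 CPM in FLWF24. The groups did not overlap, with a log2 fold change of -1.79 (SE 0.219, edgeR adjusted p 0.0004). WT libraries were at 126.5 ± 31.6 CPM and null libraries at 216.7 ± 23.8 (SD, n = 4 each). FL libraries were at 264.3 ± 92.9 CPM (SD, n = 3), each above every ΔN library, so ΔN lay near WT, and FLWF24 had the highest mean of the 5 genotypes. With an exon length of 3723 bases it is longer than most called genes, and its call was kept in 36 of 37 alternatives, ERCC scaling being the exception (-1.40, adjusted p 0.273). On the opposite strand 765 of its exon bases overlap other genes, and its counts are uncertain to that extent. *Ran*, its cargo, averaged 516.2 ± 65.6 CPM in FLWF24 and 367.6 ± 70.1 in ΔN (SD, n = 4 each; log2 fold change -0.64, adjusted p 0.255). Of 24 tested nuclear transport genes 1, *Ntf-2*, was called, against 0.326% of all genes called lower. In that list 21 were negative and 6 were lower at an unadjusted p under 0.05, against 54.0% and 7.85% of all genes. Without both low-yield libraries 14 were negative and 2 were lower.

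In ΔN, *qvr* (FBgn0260499, 2R, 11442505 to 11451604, plus strand) was nearly absent. It encodes quiver, a membrane-anchored protein that regulates the Shaker potassium channel and sleep. Counts in ΔN were 0, 1, 0 and 0, and in FLWF24 163, 77, 46 and 66. After scaling, the ratio of FLWF24 to ΔN was 281 (95% counting interval 50.02 to 11111), with an edgeR adjusted p of 0.000499. All the other genotypes had the transcript, at 2.04 ± 1.04 CPM in FL (n = 3), 11.4 ± 8.14 in WT and 36.9 ± 10.5 in null (SD, n = 4 each), and 6.86 ± 3.08 in FLWF24. The call was lost in the 4 fits on the 8 ΔN and FLWF24 libraries alone, with an adjusted p of up to 0.516.

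*UK114* (FBgn0086691, 2L, 15274181 to 15275091, minus strand) had 0 counts in all 4 ΔN libraries. FLWF24 libraries had 24, 50, 299 and 57 counts, or 1.69, 3.41, 34.6 and 4.66 CPM, with replicate 3 far above the others. FLWF24 was at least 31.6-fold higher, taking 3 counts per library as the floor (edgeR adjusted p 0.0165). Without FLWF24 replicate 3 the mean of FLWF24 was 3.25 CPM, at least 9.28-fold higher by the same floor. The call was lost in 9 of 37 alternatives. Among them were the fits on the 8 ΔN and FLWF24 libraries alone, and those without FLWF24 replicate 3 or without ΔN replicate 3. FL libraries had 0, 6 and 0 counts, so ΔN was not alone in lacking or nearly lacking it. WT libraries had 72, 94, 33 and 79 counts and null libraries 201, 144, 135 and 228. These floors and intervals cover counting error only.

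The ribosomal protein genes made the largest group. Of 86 in the list, 84 passed the filter on low counts, and 19 of these were called lower in ΔN and 0 higher, against 0.326% of all genes lower. Genes with an unadjusted p under 0.05 numbered 57 lower and 0 higher, and 53 had libraries that did not overlap with ΔN lower, against 3.53% of all genes. The median log2 fold change was -0.55, and 82 of 84 were negative, against 54.0% of all genes. *RpL37-1* was also called (-1.25, adjusted p 0.01), but its hyphenated symbol lay outside the list as written. The untested genes were *RpL10Aa* (0 counts over all 19 libraries) and *RpS28a* (46).

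*RpL36* (FBgn0002579, X, 628338 to 629483, minus strand), a protein of the large subunit, was at 1133, 963.5, 813.1 and 459.6 CPM in ΔN and at 2583, 2433, 2262 and 2461 in FLWF24. The log2 fold change was -1.64 (SE 0.229, edgeR adjusted p 0.000813), and every FLWF24 library was above every ΔN library. *RpL24* (FBgn0032518, 2L, 13393687 to 13395131, minus strand) was at 985.3, 981.2, 854.4 and 1185 CPM in ΔN and at 2289, 2212, 2107 and 1981 in FLWF24. It fell by 1.10 on the log2 scale (adjusted p 0.00176).

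Both subunits of the ribosome took part. Of 47 large-subunit genes 9 were called, with a median log2 fold change of -0.53, and of 37 small-subunit genes 10 were called, with a median of -0.59. The other called large-subunit genes were *RpL40* (-1.35), *RpL18* (-1.06), *RpL29* (-1.46), *RpL35* (-0.88), *RpL36A* (-0.99), *RpLP2* (-0.80) and *RpL12* (-0.71). Called small-subunit genes included *RpS14b* (-1.37), *RpS28b* (-1.15), *RpS19a* (-1.06), *RpS29* (-1.05), *RpS21* (-1.06), *RpS15Aa* (-0.98), *RpS30* (-0.93), *RpS27* (-0.90) and *RpS12* (-0.83). Values differed widely across the ribosome. *RpL34b* (-0.03), *RpS2* (-0.07) and *RpS7* (-0.10) were near 0, and *RpL10* (0.15) and *RpL27A* (0.34) had positive values, none of them called. The lowest fold changes of the list, of *RpS10a* and *RpS19b*, came from 0.00 and 0.45 CPM in ΔN against 2.26 and 6.43 in FLWF24 and were not called.

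Genes with a near-identical copy need care, because reads that fit both copies may be lost or split. *RpS14b* averaged 366.7 ± 46.7 CPM in FLWF24 and 147.7 ± 34.0 in ΔN, while its copy *RpS14a* averaged 1322 ± 50.6 and 1070 ± 343.5 (SD, n = 4 each; log2 fold change -0.23, adjusted p 0.678). The copies of *RpS28b*, *RpS19a* and *RpL37-1* had means of at most 6.43 CPM in either group.

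**Figure D2:**
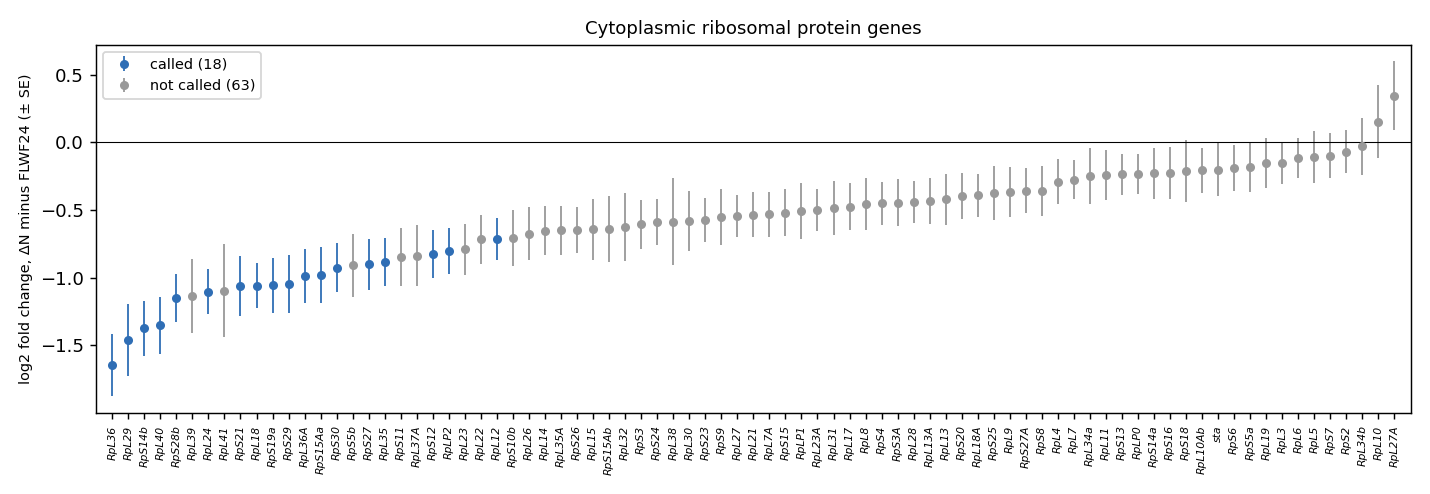
Log2 fold change of ΔN against FLWF24 for 81 of the 84 tested ribosomal protein genes, ordered by size, with the SE of the edgeR fit as the bar and 18 called genes in blue. *RpS10a* and *RpS19b*, under 7 CPM in both groups, lie below the range shown, and 1 further gene is not shown. All but 2 of the genes shown are below 0.

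As a share of all gene counts, which scaling does not enter, ribosomal protein genes took 10.4%, 12.0%, 10.2% and 12.9% in ΔN and 15.8%, 15.9%, 15.6% and 15.4% in FLWF24. The groups did not overlap, and FLWF24 was tighter than any other genotype. The means were 11.4 ± 1.30% and 15.7 ± 0.217% (SD, n = 4 each), a difference of -4.32 percentage points with a two-sided exact permutation p of 0.0286, the smallest that 4 against 4 libraries allow, and 0.0571 adjusted over the 2 single values. Every other library lay below the lowest FLWF24 library, with WT from 10.6% to 15.3%, FL from 11.5% to 14.9% and null from 10.2% to 13.9%, and all 3 genotypes overlapped with ΔN.

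The gap between the transgenes lay on both sides of the controls. FLWF24 had the highest mean of the 5 genotypes for 67 of the 84 genes and ΔN the lowest for 62, against 13.9% and 26.6% of all tested genes. The median log2 fold change of the 84 genes was 0.32 for FLWF24 against WT and -0.22 for ΔN against WT. Of them 6 were called higher in the first and 0 were called in the second. Over all 11978 tested genes the medians were -0.05 and -0.11. There 18 were called higher and 4 lower in the first, and 2 higher and 7 lower in the second. Against FL the medians of the 84 genes were 0.28 and -0.27, with 0 called in each. Those of all tested genes were 0.01, with 3 called higher and 0 lower, and -0.05, with 1 called higher and 1 lower. These comparisons share the FLWF24, ΔN, WT or FL libraries and are given side by side only.

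**Figure D3:**
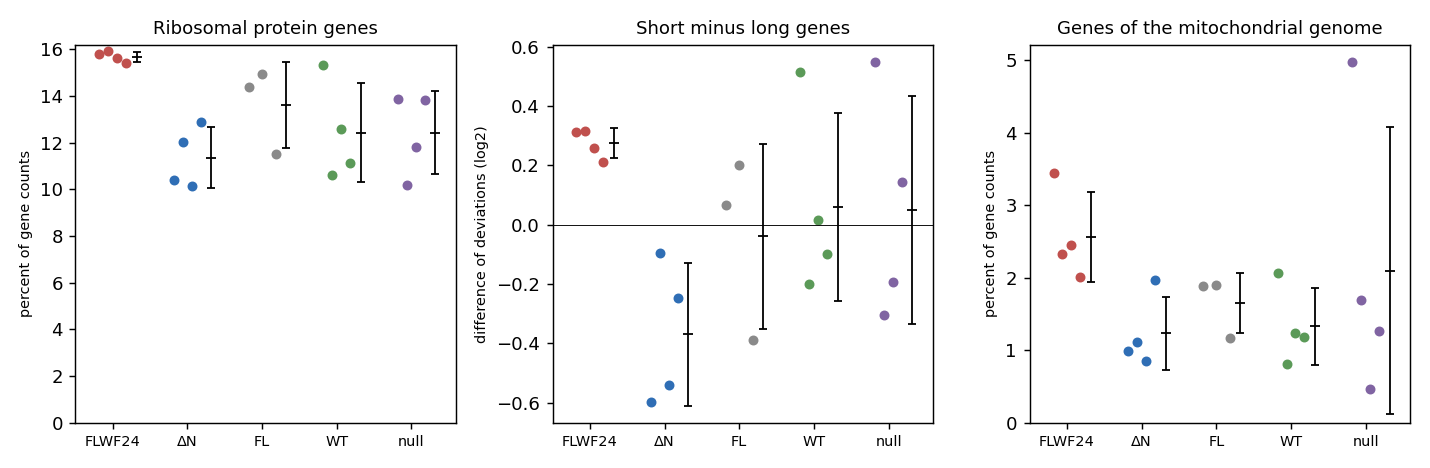
Percent of gene counts in ribosomal protein genes (left), the level of short genes minus that of long genes as a log2 deviation from the mean of all libraries (middle) and percent of gene counts in genes of the mitochondrial genome (right), 1 dot per library with the mean and SD as a bar (n = 3 for FL, 4 for the others). In each panel the FLWF24 libraries lie above the ΔN libraries, and libraries of each other genotype overlap with ΔN. In the left panel no other library reaches the FLWF24 libraries.

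The length of the genes moved with these results. Called genes had a median annotated exon length of 735 bases, ribosomal protein genes 909.5 and all tested genes 1872. Among genes other than ribosomal protein genes, the median log2 fold change was -0.54 below 500 bases, -0.33 from 500 to 750, -0.12 from 1500 to 2000 and 0.13 from 6000 bases up. Among those at 100 CPM or more, it was -0.51 for 40 genes below 750 bases and 0.10 for 1247 genes of at least 3000 bases. Per library, the median deviation of genes below 750 bases minus that of genes of 4000 bases or more was -0.60, -0.09, -0.54 and -0.25 in ΔN replicates 1 to 4 and 0.31, 0.32, 0.26 and 0.21 in FLWF24. The groups did not overlap. Libraries of WT (-0.20 to 0.52) and null (-0.30 to 0.55) reached from the range of ΔN to beyond that of FLWF24, and FL (-0.39 to 0.20) reached from the range of ΔN to just under that of FLWF24.

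When the length trend of each library, taken from genes outside the ribosomal protein list, was removed, an alternative added after seeing the data, 0 ribosomal protein genes were called. Their median log2 fold change became -0.11, with the median of all genes at 0.08 in that fit. Of the 84 genes 54 were negative, and 17 were lower and 4 higher at an unadjusted p under 0.05. Of all 11978 tested genes, 1320 had an unadjusted p under 0.05 in that fit, in either direction. In the classes from 500 to 1500 bases the medians of all genes then lay from 0.115 to 0.176. *RpL36* was then at -1.01 (edgeR adjusted p 0.378) and *RpL24* at -0.74 (0.0912). With ERCC scaling 0 genes of the list were called and their median was -0.24, with the median of all genes at 0.21. The median of the list minus that of all genes was -0.46 with ERCC scaling. It was -0.49 in the main fit and -0.19 with the length trend removed. The count of called ribosomal protein genes was 7 without FLWF24 replicate 1, 9 without replicate 2, 8 without replicate 3 and 9 without replicate 4, 7 without ΔN replicate 3 and 9 without null replicate 4. It was 11 without both low-yield libraries, with all 84 genes negative.

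**Figure D4:**
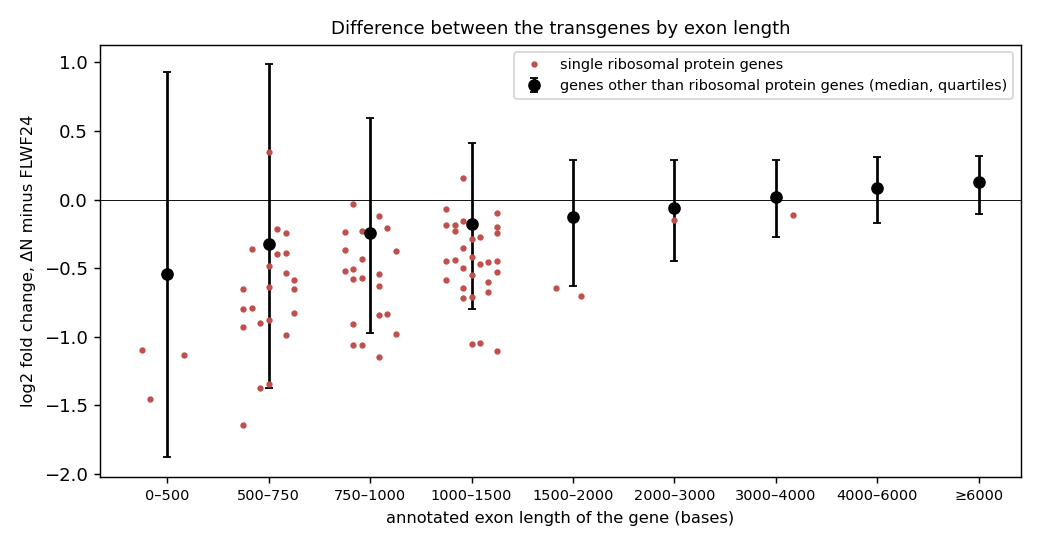
Log2 fold change of ΔN against FLWF24 (vertical axis) by annotated exon length in bases (horizontal axis, 9 classes). Black dots and bars are the median and quartiles of genes other than ribosomal protein genes, and red dots are 81 single ribosomal protein genes, the ones in the plot of single fold changes. The medians climb from -0.54 in the shortest class to 0.13 in the longest, and most ribosomal protein genes lie in the classes below 1500 bases.

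Other groups of the protein and energy machinery also had negative medians. In the respiratory chain, 2 of 73 tested nuclear-encoded subunit genes were called lower and 0 higher, with a median of -0.30, against 0.326% of all genes called lower. Without ΔN replicate 4 the median was -0.46 with 1 call, with the median of all genes at -0.13. *UQCR-6.4*, a subunit of complex III, was at 14.1, 15.1, 16.7 and 17.9 CPM in ΔN and at 33.0, 54.3, 50.3 and 42.0 in FLWF24, without overlap (-1.42, edgeR adjusted p 0.0141). *ND-B14.5B*, of complex I, had -1.33 (adjusted p 0.0478), the value closest to the threshold among the lower genes. *cype*, a cytochrome c oxidase subunit outside the list as written, was also called (-1.16, adjusted p 0.0426), as was *Tom7* (-1.16, adjusted p 0.0319), part of the import pore of the mitochondrial outer membrane. The call of *UQCR-6.4* was lost in 7 of 37 alternatives, 1 of them a fit without 1 library. *ND-B14.5B* lost it in 29, *cype* in 28 and *Tom7* in 22, of which 14, 14 and 8 left out 1 library. With the length trend removed the median of the 73 genes was 0.08, with that of all genes also at 0.08, and 0 were called.

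Transcripts of the mitochondrial genome itself took 0.993%, 1.12%, 0.856% and 1.97% of gene counts in ΔN and 3.44%, 2.34%, 2.46% and 2.02% in FLWF24. The groups did not overlap, although ΔN replicate 4 came close to FLWF24 replicate 4. Of 12 tested genes, 11 were negative with a median of -1.18, 5 were lower at an unadjusted p under 0.05, against 7.85% of all genes, and 0 were called. *mt:ND1*, a complex I subunit, averaged 4369 ± 2226 CPM in FLWF24 and 554.1 ± 152.0 in ΔN (SD, n = 4 each; -2.97, adjusted p 0.121), and *mt:ND4L* 16.3 ± 18.1 and 1.91 ± 2.10 (-3.14, adjusted p 0.375). With the length trend removed, the median stayed at -0.86, with 0 called.

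In the mitochondrial ribosome 0 of 71 genes were called, against 0.342% of all genes. Their median was -0.31, with values of -0.82 for *mRpL37* (adjusted p 0.177) and -0.68 for *mRpS22* (0.246). Of 47 translation factors 0 were called and 9 were lower at an unadjusted p under 0.05, against 7.85% of all genes, among them *eEF1beta* (-0.78, adjusted p 0.0844), of the elongation factor complex, and *eEF5* (-0.60, 0.212). Proteasome genes had a median of -0.31 with 0 of 35 called, *Rpt5* at -0.74 (0.142) and *Prosalpha5* at -0.79 (0.246). With the length trend removed the medians of these 3 lists were 0.16, -0.03 and 0.05, with that of all genes at 0.08. Ribosome biogenesis genes, which make the ribosome but are not part of it, had a median of -0.01 with 0 of 29 called. Of these, *CG6712* had -0.49 (adjusted p 0.397) and *Fib*, the fibrillarin of the nucleolus, -0.37 (0.439).

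Genes of RNA processing held 1 call, with 0.342% of all tested genes called. *snf*, a protein of the U1 and U2 particles of the spliceosome, was at 114.9, 184.2, 159.8 and 122.4 CPM in ΔN and at 361.1, 256.7, 272.8 and 268.0 in FLWF24. The groups did not overlap (-1.18, edgeR adjusted p 0.00986). The call was lost in 7 of 37 alternatives, 1 of them the fit without FLWF24 replicate 1. The 12 tested Sm and related genes had a median of -0.54, with *SmF* at -1.12 (adjusted p 0.0626), and a median of 0.10 with the length trend removed. Small nucleolar RNAs and their hosts had a median of -0.53 with 0 of 127 called. *snoRNA:Psi18S-996*, with a mean of 36.4 ± 9.69 CPM in FLWF24 and 9.22 ± 2.01 in ΔN (SD, n = 4 each), was the gene just outside the threshold (-1.88, adjusted p 0.0549), next to *CG32276* (-0.87, 0.0549). *snoRNA:gcl-a* was at 0.00 and 2.41 ± 1.01 CPM (adjusted p 0.165).

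Further called genes were single members of other processes. *7SLRNA:CR32864* (FBgn0000003, 3R, 6822500 to 6822798), the RNA of the signal recognition particle, was at 695.4, 971.1, 602.0 and 467.0 CPM in ΔN and at 1865, 1176, 1467 and 2049 in FLWF24, where it was over the mean of each other genotype (648.4 to 850.9 CPM). The log2 fold change was -1.28 (edgeR adjusted p 0.01). *LysRS*, the lysyl-tRNA synthetase, averaged 303.6 ± 42.8 CPM in FLWF24 and 150.1 ± 35.3 in ΔN (SD, n = 4 each; -0.998, adjusted p 0.0133). *SecS*, of selenocysteine synthesis, had -1.18 (adjusted p 0.0466). The call of *SecS* was lost in 31 of 37 alternatives, 17 of them fits without 1 library, and those of *7SLRNA:CR32864* and *LysRS* in 9 and 7, of which 3 each left out 1 library. With the length trend removed these values were -0.66 for *7SLRNA:CR32864*, -0.86 for *LysRS* and -0.82 for *SecS*, none of them called.

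*Sod1* (FBgn0003462, 3L, 11112281 to 11113740, minus strand), the cytosolic copper and zinc superoxide dismutase, was at 24.5, 46.1, 23.2 and 20.2 CPM in ΔN and at 67.2, 77.3, 135.4 and 88.2 in FLWF24. The groups did not overlap (-1.55, SE 0.310, edgeR adjusted p 0.024). FL was at 66.6 ± 12.5 CPM (n = 3), WT at 66.4 ± 13.9 and null at 163.8 ± 59.7 (SD, n = 4 each), so ΔN had the lowest mean of the 5 genotypes. The call was lost in 18 of 37 alternatives, 8 of them fits without 1 library.

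*Cdk2* (FBgn0004107, 3R, 20735623 to 20738414, plus strand), the kinase partner of Cyclin E at the start of S phase, was at 30.8, 42.2, 22.4 and 9.82 CPM in ΔN and at 73.5, 84.0, 54.8 and 64.8 in FLWF24. It fell by 1.85 on the log2 scale without overlap (edgeR adjusted p 0.0318). The call was lost in 17 of 37 alternatives, 8 of them fits without 1 library, each FLWF24 library among them. ΔN lay near WT (32.8 ± 11.02 CPM) and null (24.4 ± 17.6), and FLWF24 near FL (57.2 ± 17.2, n = 3). Of its 2299 exon bases, 1010 overlap opposite-strand genes, so part of its counts is uncertain.

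The other lower genes were *CG8204* (-2.84, adjusted p 0.01), *CG14483* (-1.95, 0.01), *CG13551* (-1.44, 0.037), *CG14715* (-1.18, 0.0076) and *CG6340* (-1.05, 0.024), for which no role is given here, and the X-linked *lncRNA:CR40469* (-1.35, 0.037). The noncoding RNA averaged 393.9 ± 114.8 CPM in FLWF24, 166.4 ± 65.6 in ΔN and 7.92 ± 1.52 in null (SD, n = 4 each). Its groups overlapped, with ΔN replicate 1 at 252.2 CPM and FLWF24 replicate 3 at 235.9. Its call was lost in 25 of 37 alternatives and that of *CG13551* in 24, of which 13 and 11 left out 1 library. The other *CG* genes lost theirs in 7 to 14. Of the 41 called genes 12 were on the X (29.3%) and 11 on 2R (26.8%), against 16.1% and 20.3% of tested genes. Of the X-linked 12, 6 were of the ribosomal protein list.

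Higher in ΔN were *kcc*, the potassium chloride cotransporter, and *uzip*, a cell adhesion protein of the nervous system. *kcc* (FBgn0261794, 2R, 23907654 to 23925066, plus strand) was at 113.4, 105.9, 92.4 and 168.1 CPM in ΔN and at 51.3, 56.4, 113.7 and 82.2 in FLWF24. The groups overlapped through FLWF24 replicate 3, and the log2 fold change, taken with the factor of unwanted variation in the fit, was 1.07 (SE 0.195, edgeR adjusted p 0.0104). *uzip* (FBgn0004055, 2R, 25012062 to 25031737, plus strand) was at 127.7, 92.4, 95.3 and 101.4 CPM in ΔN and at 41.4, 68.4, 69.9 and 64.6 in FLWF24, without overlap (0.94, SE 0.210, adjusted p 0.0488, the value just inside the threshold). The call of *kcc* was lost in 10 of 37 alternatives, among them the fit without FLWF24 replicate 1, and that of *uzip* in 25. Both are long genes, of 4946 and 4114 exon bases, and neither was called with the length trend removed (1.01 and 0.92, adjusted p 0.0912 and 0.121).

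Stress genes, most of them of the heat shock families, held 0 calls, against 0.342% of all genes. Of 17 tested, 12 had positive values, with a median of 1.04, and 6 were higher and 1 lower at an unadjusted p under 0.05, against 3.99% and 7.85% of all genes. The constitutive chaperone genes *Hsc70-4* and *Hsc70-3* had -0.23 each and *Hsp83* -0.05. *Hsp23*, a small chaperone, was at 79.7, 42.2, 38.6 and 92.5 CPM in ΔN and at 13.04, 11.5, 42.7 and 32.4 in FLWF24 (1.68, edgeR adjusted p 0.0549). *Hsp70Ba*, of the inducible HSP70 family, was at 93.2, 21.9, 46.4 and 33.6 CPM in ΔN and at 6.91, 3.96, 39.6 and 12.1 in FLWF24 (2.66, adjusted p 0.0566). In both, FLWF24 replicate 3 lay within the range of ΔN. The *Hsp70* copies are near-identical, and their single values are uncertain. *GstD1*, a glutathione transferase, was the lower gene, at 34.8 ± 11.5 and 127.6 ± 104.8 CPM (SD, n = 4 each; adjusted p 0.417). Without ΔN replicate 4 the median was 1.34 and *Hsp70Ba* was called (2.90, adjusted p 0.0287), and with the length trend removed it was 1.37 with 0 called.

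The list of the CHAT and other Gcn5 complexes, which holds *chif* itself, had 0 of 25 genes called, against 0.342% of all genes, and a median of -0.05. At an unadjusted p under 0.05, *chif* was the 1 higher gene, and *Taf12* and *Ada2b* were the 2 lower ones. *Gcn5* itself averaged 49.1 ± 13.7 CPM in FLWF24 and 48.9 ± 8.28 in ΔN (SD, n = 4 each; -0.05, SE 0.258, edgeR adjusted p 0.98). *Taf12*, of the SAGA complex, had -0.90 (adjusted p 0.136). Of 15 other acetyltransferase and deacetylase genes 0 were called. *Sirt1* had 0.31 (0.484), and *HDAC11* averaged 2.13 ± 2.71 CPM in ΔN and had 0 counts in FLWF24 (0.403).

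DNA replication is the process in which Chiffon-A, lacking in both genotypes, acts. Of 30 tested genes of DDK and replication 0 were called, against 0.342% of all genes, with a median of -0.35. *Cdk2*, called lower as described above (-1.85, edgeR adjusted p 0.0318), lay outside this list and the mitosis list as written. *dap*, the Cyclin E and Cdk2 inhibitor, averaged 528.7 ± 79.2 CPM in FLWF24 and 423.4 ± 158.8 in ΔN (SD, n = 4 each; -0.66, edgeR adjusted p 0.302), and *Orc4*, of the origin recognition complex, had -0.73 (0.427). Of 23 mitosis genes 0 were called, with a median of -0.34 and *stg*, the Cdc25 phosphatase, at -0.60 (0.378) and *polo* at -0.73 (0.502). Without both low-yield libraries the medians of these lists were -0.12 and -0.02, with that of all genes at -0.13. Histone genes had 0 of 11 called, *His2Av* at -0.47 (0.428) and *His1:CG33801* at -0.94 (0.619), and early embryo genes 0 of 31, with *rho* at 0.50 (0.407).

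Markers of cell types held 0 calls, against 0.342% of all genes. A count of 0 in lists this short does not set them apart from that share. Medians were -0.03 over 22 neuronal, 0.05 over 11 glial, 0.04 over 16 hemocyte, -0.18 over 11 germ cell, -0.000448 over 11 salivary gland, 0.10 over 10 tracheal, -0.12 over 9 amnioserosa, 0.17 over 9 fat body, -0.02 over 9 midgut and -0.18 over 20 sarcomere genes. Without ΔN replicate 4 the fat body median turned to -0.38, the midgut median to 0.14 and the hemocyte median to -0.04, and the sarcomere median was -0.50 and the neuronal -0.23. Without both low-yield libraries the fat body median was -0.60. The median of all genes was -0.13 in each of these fits. All tested markers had counts in at least 1 of the 8 libraries. Values of the leading genes were -0.91 for *tau* (adjusted p 0.349) and 1.68 for *ChAT* (0.458), neurons; 0.27 for *Gli* (0.543) and 2.92 for *Eaat1* (0.565), glia; 0.62 for *PPO2* (0.333) and 0.43 for *Ppn* (0.466), hemocytes. Germ cell genes *wun2* and *aub* had -0.41 (0.447) and -1.19 (0.538), salivary gland genes *hkb* and *CrebA* -0.94 (0.495) and -0.32 (0.593), and tracheal genes *verm* and *trh* 0.63 (0.56) and 0.32 (0.71). *Doc2* and *kay* of the amnioserosa had -1.09 (0.427) and -0.23 (0.844), *Lsp1beta* and *svp* of the fat body -3.83 (0.573) and -0.34 (0.642), and *TpnC47D* and *Act57B* of muscle -0.94 (0.499) and -0.37 (0.54). *GATAe* of the midgut had 0.74 (0.198). *pnr*, in the midgut list as written but not a gene particular to the midgut, had -0.42 (0.69).

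Cuticle genes turned with 1 library. Of 90 tested genes 20 were higher and 5 lower at an unadjusted p under 0.05, against 3.99% and 7.85% of all genes, and 0 were called, with a median of 1.62. Their summed level was 141.4 to 3322 CPM in ΔN and 202.8 to 1934 in FLWF24. Without ΔN replicate 4, the library of the highest stage score, the median was -0.53, with that of all genes at -0.13. Cuticle genes enter that score, so it is no separate trait of that library. *Cpr62Bc* and *Cpr67Fa1*, cuticle proteins, were at 68.7 and 7.93 CPM in that library and at most at 3.32 and 0.767 in the other ΔN libraries (edgeR adjusted p 0.166 and 0.102). Apoptosis, sex and ecdysone or isoprenoid genes held 0 calls, against 0.342% of all genes. *Dark* was at -0.47 (adjusted p 0.358), *Xrp1* at 0.28 (0.654), *lncRNA:roX1* at -0.54 (0.371), *msl-3* at -0.72 (0.432), *jhamt* at 3.09 (0.36) and *Pmvk* at -0.67 (0.41).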

How the data were processed

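RNA-seq counts of 19 embryo libraries were used. Per the labels and the study's methods, total RNA went into rRNA-depleted NuGEN Ovation libraries, and the authors used Trimmomatic for trimming, HISAT2 for mapping to dm6 and HTSeq 0.11.1 for counting. The deposited values were raw counts per gene. The table header was shifted by 1 cell, and names were read in their order. The FL columns carry other numbers than the labels and were matched as a group. The counting mode assigns reads by strand, which the kit is not known to keep, so overlapping and antisense genes are uncertain. Coordinates and gene symbols are those of a newer annotation on that assembly (BDGP6), in which 17710 of 17807 gene identifiers were found.

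Removal of 138 rRNA genes and of all rows that were not genes left 17669, of which 11978 passed filterByExpr by genotype and were tested. CPM are TMM-scaled. The test was edgeR 4.0.16 quasi-likelihood (R 4.3.3, robust, two-sided) over all 19 libraries with genotype and 1 RUVs factor, which the study names without a number of factors. P-values were Benjamini-Hochberg adjusted over all tested genes, and the log2 threshold of 0.5 is the study's, read as log2. P-values measure the spread between the libraries, which the study calls biological replicates. Single values were compared by exact permutation over 70 splits. Alternatives were other RUV settings, DESeq2 1.42.0, other scalings and filters, thinned counts, a replicate block, the stage score and leaving out each library. The alternatives without the low-yield libraries and without the length trend were chosen after seeing the data.

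Named genes were *chif*, up to 10 called higher and 25 called lower by adjusted p, the 2 genes of smallest p in each list (4 of the ribosomal list), and the 2 just inside and just outside the threshold. The remaining called genes, the other ribosomal protein genes, *Gcn5* and *GstD1* were named after their values were seen. The comparison and the lists were chosen with earlier results of these data known. One item covered by the rule for names is not reported here.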

Additional observations from a re-analysis of the deposited data

Results flagged for a closer look

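Within the groups of 4, Dixon's test on values without a log marked 18 of 212 group values. For normally distributed values chance alone would mark about 1 in 20, a rate that need not hold here. A group with a single library above 0 is always marked, as were *qvr* and *Lsp1beta* in ΔN and *Cpr67Fa1* and *Cpr62Bc* in FLWF24. A group of equal values never is. Among called genes, the single libraries apart from their group were FLWF24 replicate 1 for *qvr* (11.5 CPM, others 5.25 to 5.397) and *snf* (361.1, others 256.7 to 272.8), FLWF24 replicate 3 for *UK114* (34.6, others 1.69 to 4.66), ΔN replicate 1 for *RpL18* (806.4, others 667.7 to 681.8), ΔN replicate 2 for *Sod1* (46.1, others 20.2 to 24.5) and *qvr* (0.101, others 0), and ΔN replicate 3 for *RpS12* (351.7, others 456.2 to 473.4). In each of these genes the groups stayed apart with that library included.

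Among genes that were not called, ΔN replicate 4 stood apart for *Cpr67Fa1* (7.93 CPM), *Cpr62Bc* (68.7) and *Lsp1beta* (0.378), ΔN replicate 1 for *trh* (266.9) and ΔN replicate 2 for *Ppn* (755.7). FLWF24 replicate 3 stood apart for *Act57B* (2496), *Cpr67Fa1* (0.347) and *Cpr62Bc* (0.926), FLWF24 replicate 2 for *polo* (266.2), and FLWF24 replicate 4 for *Gli* (142.7) and *jhamt* (11.1).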

How the results depend on the processing

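The count of 41 calls, with 19 ribosomal protein genes, became 72 with 2 RUV factors, 32 and 17 in the 8 libraries alone with the factor and 23 and 15 without it, 335 with DESeq2, 21 and 7 with RLE scaling, 25 and 10 with TMM from other genes, 1 and 0 with ERCC scaling, which moved the median of all genes to 0.21, 64 with the stage score in place of the factor, and 2 and 0 with the length trend removed. Ribosomal calls were 12 with thinned counts and 11 without the low-yield libraries. Leaving out 1 library gave 13 to 66 calls and 7 to 20 ribosomal ones. The cause of these moves was not tested. Deviations from the group means correlated at -0.11 to 0.09 for same-numbered libraries and at -0.10 to 0.11 for the other pairs. Whether libraries of a number shared a batch was not tested. Against the fits on the 8 libraries alone, a replicate block gave 23 and 6 calls with the factor and 13 and 7 without it. *chif* passed the threshold with DESeq2 (0.85), without ΔN replicate 4 (1.03, over a range of 0.64 to 1.11 for all of its alternatives) and without both low-yield libraries (1.01). The stage score difference of 0.01 turned to -0.728, -0.0794 and -0.207 without ΔN replicate 4, FLWF24 replicate 1 and FLWF24 replicate 2 (up to 0.416 without ΔN replicate 2), and to -0.043 with a pseudocount of 5. Signs of uncalled genes turned for *Eaat1* (-0.64 without the factor, -0.62 in the 8 libraries), *Xrp1* (-0.0775, -0.0646, -0.0232 with the block and -0.0717 with the stage score), *trh* (-0.0531 without ΔN replicate 1, up to 0.48 in the other fits without 1 library), *Fib* (0.0185 with ERCC scaling, 0.00307 with the length trend removed), and with ERCC scaling *His2Av* (0.0652), *CrebA* (0.0573) and *pnr* (0.23). Counts of 0 or 1 in ΔN limit *qvr* and *UK114* to bounds and wide intervals.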
